A study of Mus musculus with 34 samples.

Results

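The genes Nrcam, Ano3, Sv2b, Gnal, Ndrg4, Abat and Fam171b, 7 of the 23011 genes in the deposited table, are best known from neurons and were followed through skeletal muscle of trained and sedentary mice. They were chosen by name because they led the rises with training in libraries with a soleus profile, so their training differences in those libraries are a description and were not tested. RNA was sequenced from 34 muscle samples of female mice. Trained mice ran 8 weeks of PoWeR (progressive weighted wheel running: voluntary running on a wheel whose load is increased) and were set against sedentary mice of the same age. All mice were fasted overnight, and the PoWeR mice also had their wheel locked for 24 h before tissue was taken. The groups were aged (24 months) soleus with 4 PoWeR and 5 sedentary libraries, young (6 months) soleus with 4 PoWeR and 4 sedentary, libraries labelled young plantaris (6 months) with 4 PoWeR and 4 sedentary, and aged plantaris with 4 PoWeR and 5 sedentary libraries. The labels give no strain and do not say whether each library came from its own mouse, so a p-value here speaks only of variation among libraries. Sample names of young soleus and of the libraries labelled young plantaris hold many of the same numbers. Whether the same mice stand behind both sets is not stated, so the young pairs are not known to be independent of each other.

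The soleus is a slow postural muscle and the plantaris its fast neighbour. Summed deposited counts ran from 15237626 to 26250461 per library. The aged libraries fitted their muscle: 9 of 9 slow fibre markers were higher and 9 of 10 fast fibre markers lower in aged sedentary soleus than in aged sedentary plantaris. The libraries labelled young plantaris did not. Their slow fibre markers summed to 44390 to 57440 CPM (counts scaled to the library's total) with PoWeR and 45430 to 50670 CPM when sedentary, beside 981.5 to 3690 CPM in aged plantaris PoWeR and 198.4 to 2327 CPM in aged plantaris sedentary libraries. They are called by their label throughout, and with both soleus ages they make 25 libraries with a soleus profile against 9 of aged plantaris. A ribosomal RNA repeat gene held under 0.7% of counts in PoWeR replicates 1, 2 and 4 and sedentary replicate 3 of the libraries labelled young plantaris, and in young soleus PoWeR replicate 3. Mitochondrial transcripts held 10.7% to 18.5% of counts in young soleus PoWeR and 21.3% to 23.1% in young soleus sedentary libraries, without overlap, and their part in the members' values was not tested.

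As background, muscle fibres and nerves use many of the same membrane and signalling proteins. NrCAM is an adhesion molecule of the L1 family that binds ankyrins and helps to hold sodium channels in place at axon initial segments and nodes of Ranvier. Anoctamin 3 is a membrane protein of the anoctamin family of ion channels and lipid scramblases, and SV2B is a transporter-like glycoprotein of synaptic vesicles. Gnal encodes the alpha subunit of Golf, the G protein that couples odorant and striatal receptors to adenylyl cyclase. NDRG4 is a cytoplasmic protein abundant in brain and heart, and Abat encodes the mitochondrial transaminase that degrades the transmitter GABA. FAM171B is a membrane protein found in brain whose role is little known.

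RefSeq promoter windows (GRCm38.p6) are shown for Nrcam, Ano3, Sv2b and Ndrg4. Gnal was left out by name and its window was not searched, and no window was listed for Abat and Fam171b. The 250 bases upstream of the outermost listed start are given, 5' to 3' on the gene's strand. All 4 were higher with PoWeR, without overlap, in young soleus and in the libraries labelled young plantaris, as were the members not shown. The windows are chr12:44328635-44328884 (plus), chr2:110950245-110950494 (minus), chr7:75309263-75309512 (minus) and chr8:95676724-95676973 (plus). The Ano3 window lies inside the deposited span of that gene, whose 5' end is at 110950923. Capitals mark a match to a searched motif.
Nrcam: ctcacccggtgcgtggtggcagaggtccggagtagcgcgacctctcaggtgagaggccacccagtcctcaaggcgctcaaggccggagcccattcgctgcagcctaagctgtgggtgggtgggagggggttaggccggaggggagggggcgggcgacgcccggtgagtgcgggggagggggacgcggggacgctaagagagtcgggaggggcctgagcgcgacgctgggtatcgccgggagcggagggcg
Ano3: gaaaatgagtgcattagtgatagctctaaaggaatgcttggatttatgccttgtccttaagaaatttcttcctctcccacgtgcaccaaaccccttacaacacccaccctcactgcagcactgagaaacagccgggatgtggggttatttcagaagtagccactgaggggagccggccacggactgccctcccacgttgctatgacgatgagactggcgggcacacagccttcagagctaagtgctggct
Sv2b: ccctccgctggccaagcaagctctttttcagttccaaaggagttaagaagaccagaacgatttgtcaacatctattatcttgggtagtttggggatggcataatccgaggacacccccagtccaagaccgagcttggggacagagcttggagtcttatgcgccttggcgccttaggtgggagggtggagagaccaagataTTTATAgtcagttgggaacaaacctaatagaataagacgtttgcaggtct
Ndrg4: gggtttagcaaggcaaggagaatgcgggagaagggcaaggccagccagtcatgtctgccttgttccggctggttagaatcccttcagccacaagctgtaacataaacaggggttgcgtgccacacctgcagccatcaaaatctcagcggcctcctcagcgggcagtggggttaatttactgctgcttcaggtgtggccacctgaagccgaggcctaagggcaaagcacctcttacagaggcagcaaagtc

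The searched motifs were the E-box CAGCTG, the TATA box TATAAA, the cAMP response element TGACGTCA and the MEF2 motif, on both strands and with overlaps counted. The only match in these 4 windows was a TATA box in Sv2b, on the reverse strand, with its first base at -50. Over 32851 RefSeq windows of the same length, 12.4% held TATAAA, 13% CAGCTG, 1.55% TGACGTCA and 2.92% the MEF2 motif. The Nrcam window was 72.4% G and C, against 52.4% in Ano3, 48.8% in Sv2b, 56% in Ndrg4 and a median of 52.4% over all windows. A match is a run of letters in the window and says nothing of binding.

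The 7 genes lie on 6 mouse chromosomes and are protein coding, on mm10 (GRCm38) coordinates as deposited. Nrcam spans chromosome 12, 44328885 to 44601964, on the plus strand. Ano3 spans chromosome 2, 110655201 to 110950923, on the minus strand, and Fam171b lies on the same chromosome at 83812636 to 83883486, plus strand. Sv2b spans chromosome 7, 75114894 to 75309262, minus strand. Gnal spans chromosome 18, 67088216 to 67226792, plus strand. Ndrg4 spans chromosome 8, 95676980 to 95715119, and Abat chromosome 16, 8513429 to 8621568, both on the plus strand. The spans run from 38.14 kb for Ndrg4 to 295.7 kb for Ano3, and the exons add up to 4.893 kb in Ndrg4 and 13.36 kb in Nrcam. Gnal overlaps Chmp1b on the same strand (median 35.95 CPM over the 34 libraries), and its deposited values were not whole numbers in all 34 libraries. Its level is therefore uncertain, since reads could be shared with that gene. Ndrg4 had values that were not whole in 19 libraries.

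Nrcam, the adhesion molecule, had the largest fitted training difference of the 7 genes in each of the soleus-type comparisons. In aged soleus it had 9.74, 10.6, 2.56 and 4.69 CPM in PoWeR replicates 10, 12, 14 and 15, against 0.995, 1.65, 0.555, 1.26 and 1.13 CPM in sedentary replicates 12 to 16. Young soleus had 4.67, 8.71, 11.3 and 4.52 CPM with PoWeR and 0.807, 0.658, 1.08 and 0.754 CPM when sedentary. The libraries labelled young plantaris had 5.43, 18.7, 8.37 and 9.55 CPM with PoWeR and 1.55, 0.739, 1.31 and 0.896 CPM when sedentary. Every PoWeR library lay above every sedentary library in all 3 pairs, and replicates 10 and 12 were the high ones in aged soleus. The fitted log2 fold changes were 2.60 ± 0.40 (SE), 3.16 ± 0.44 and 3.21 ± 0.47, in the same order of pairs. Aged plantaris stood apart, with 0.12, 0.911, 0.488 and 0.108 CPM in its PoWeR libraries, against 0.508, 0.118, 0.3, 0.467 and 0.188 CPM in its sedentary ones, which are 2 to 16 reads with PoWeR and 2 to 8 when sedentary. These ranges overlapped. In whole muscle, fewer cells of a type and less RNA per cell cannot be told apart.

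Ano3, the anoctamin, was the member whose training difference did not have the same sign in every soleus-type comparison. Young soleus PoWeR libraries had 11.1, 10.4, 14.8 and 5.04 CPM, against 2.24, 2.24, 2.01 and 2.96 CPM in sedentary ones. The libraries labelled young plantaris had 6.54, 13.5, 15.7 and 10.7 CPM with PoWeR and 2, 2.61, 3.33 and 1.71 CPM when sedentary. Neither pair overlapped, and the log2 fold changes were 2.16 ± 0.40 and 2.24 ± 0.38. In aged soleus, Ano3 had 1.76, 1.17, 2.73 and 5.36 CPM in PoWeR replicates 10, 12, 14 and 15, against 3.76, 3.48, 2.11, 4.86 and 5.6 CPM in sedentary libraries. These groups overlapped, with a log2 fold change of -0.54 ± 0.38, and the lowest PoWeR values were in replicates 10 and 12, where Nrcam was highest. Without 1 aged soleus library at a time the value ran from -1.09 to -0.285. Whether the aged and young differences differ was not tested, since both chose the genes. Aged plantaris held 0 to 2 Ano3 reads a library with PoWeR and 0 to 5 when sedentary, and no fold change is given there.

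Sv2b, the vesicle glycoprotein, was higher with PoWeR in both young pairs without overlap. Young soleus had 4.42, 9.28, 13.9 and 4.62 CPM with PoWeR, against 2.61, 1.38, 2.25 and 1.51 CPM without. The libraries labelled young plantaris had 6.1, 15.4, 6.77 and 6.98 CPM with PoWeR and 2.27, 1.77, 1.76 and 1.92 CPM when sedentary. The log2 fold changes were 2.08 ± 0.50 and 2.18 ± 0.39. Aged soleus had 12.9, 5.7, 5.29 and 3.63 CPM with PoWeR and 1.83, 3.91, 6.83, 2.04 and 2.04 CPM when sedentary. There the groups overlapped, 1 of 4 PoWeR libraries being above the highest sedentary one, and the log2 fold change was 1.03 ± 0.45. Aged plantaris held 0 to 0.324 CPM (0 to 6 reads) with PoWeR and 0.0601 to 0.334 CPM (1 to 5 reads) when sedentary.

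Gnal, the Golf subunit, was higher with PoWeR in both young pairs. Young soleus had 25.2, 28.8, 44.2 and 17.4 CPM with PoWeR and 11.8, 7.89, 10.9 and 9.63 CPM when sedentary, and the libraries labelled young plantaris had 22.7, 59.7, 39.6 and 24.1 CPM with PoWeR and 10.4, 10.5, 14.5 and 8.19 CPM when sedentary. Both pairs were without overlap, at log2 fold changes of 1.56 ± 0.31 and 1.72 ± 0.30. Aged soleus had 40, 45.5, 46.2 and 37.1 CPM with PoWeR and 21.2, 50.8, 20.2, 19.4 and 24.6 CPM when sedentary. Sedentary replicate 13 was above all 4 PoWeR libraries, while the other 4 sedentary libraries were below them, and the log2 fold change was 0.62 ± 0.28. Sedentary soleus also differed with age for this gene, which is given as a description: Gnal averaged 27.3 ± 13.3 CPM in aged (SD, n = 5) and 10.1 ± 1.69 CPM in young mice (n = 4), with no overlap. For no other member did the aged sedentary soleus libraries all lie on the same side of the young ones. Aged plantaris had 2.52, 3.07, 1.81 and 4.48 CPM with PoWeR and 2.29, 2.59, 1.92, 1.67 and 1.25 CPM when sedentary.

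Ndrg4, the brain and heart protein, had the highest group mean of the 7 genes in each soleus-type group, in CPM and per kb of exon. Its mean in young soleus was 24.4 ± 8.45 CPM per kb with PoWeR and 7.57 ± 2.31 CPM per kb when sedentary (SD, n = 4 each). By library that was 62.8, 145, 154.8 and 114.8 CPM with PoWeR and 39.3, 51.9, 30.9 and 26.1 CPM when sedentary. The libraries labelled young plantaris had 128.2, 186.7, 98.5 and 132.9 CPM with PoWeR and 41.2, 28.6, 35.7 and 27.1 CPM when sedentary, again without overlap. The log2 fold changes were 1.72 ± 0.43 and 2.03 ± 0.38. In aged soleus it had 35, 123.1, 87.4 and 108.8 CPM with PoWeR and 54.2, 74.1, 20.6, 57.4 and 47 CPM when sedentary. PoWeR replicate 10 lay inside the sedentary range and the other 3 above it, at a log2 fold change of 0.79 ± 0.40. Aged plantaris had 1.98, 4.44, 2.09 and 3.29 CPM with PoWeR and 4.25, 1.65, 3.06, 4.67 and 0.501 CPM when sedentary.

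Abat, the GABA transaminase, had the smallest standard error of the 7 genes in each of the soleus-type pairs. Aged soleus had 30.9, 49.5, 32.6 and 32.3 CPM with PoWeR and 16.4, 26.3, 13.4, 16.5 and 17.2 CPM when sedentary. Young soleus had 46.6, 66.1, 61.1 and 38.7 CPM with PoWeR and 21.3, 15.5, 19.4 and 19.9 CPM when sedentary, and the libraries labelled young plantaris had 46, 73, 53.9 and 47.2 CPM with PoWeR and 19.6, 19.8, 16.4 and 19.1 CPM when sedentary. No pair overlapped. The log2 fold changes were 1.002 ± 0.19 in aged soleus, 1.51 ± 0.21 in young soleus and 1.54 ± 0.25 in the libraries labelled young plantaris. Sedentary levels were close at the 2 ages of soleus, at 17.9 ± 4.87 CPM in aged (SD, n = 5) and 19 ± 2.5 CPM in young (n = 4).

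Fam171b, the membrane protein of little-known role, was without overlap in all 3 pairs but at different levels. Its PoWeR libraries had 4.25, 9.64, 4.01 and 6.98 CPM in aged soleus, against 3.26, 3.73, 2.83, 1.44 and 2.37 CPM in sedentary ones. The values were 7.47, 26.8, 44.7 and 15.4 CPM with PoWeR and 5.22, 2.5, 4.95 and 4.47 CPM when sedentary in young soleus. In the libraries labelled young plantaris they were 17.4, 50.3, 11.8 and 24.5 CPM with PoWeR and 6.37, 7.19, 5.19 and 6.1 CPM when sedentary. The PoWeR libraries were spread widely in both young pairs, with replicate 3 highest in young soleus and replicate 2 in the libraries labelled young plantaris. The log2 fold changes were 1.17 ± 0.45 in aged soleus, 2.49 ± 0.46 in young soleus and 2.05 ± 0.45 in the libraries labelled young plantaris.

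**Figure D1:**
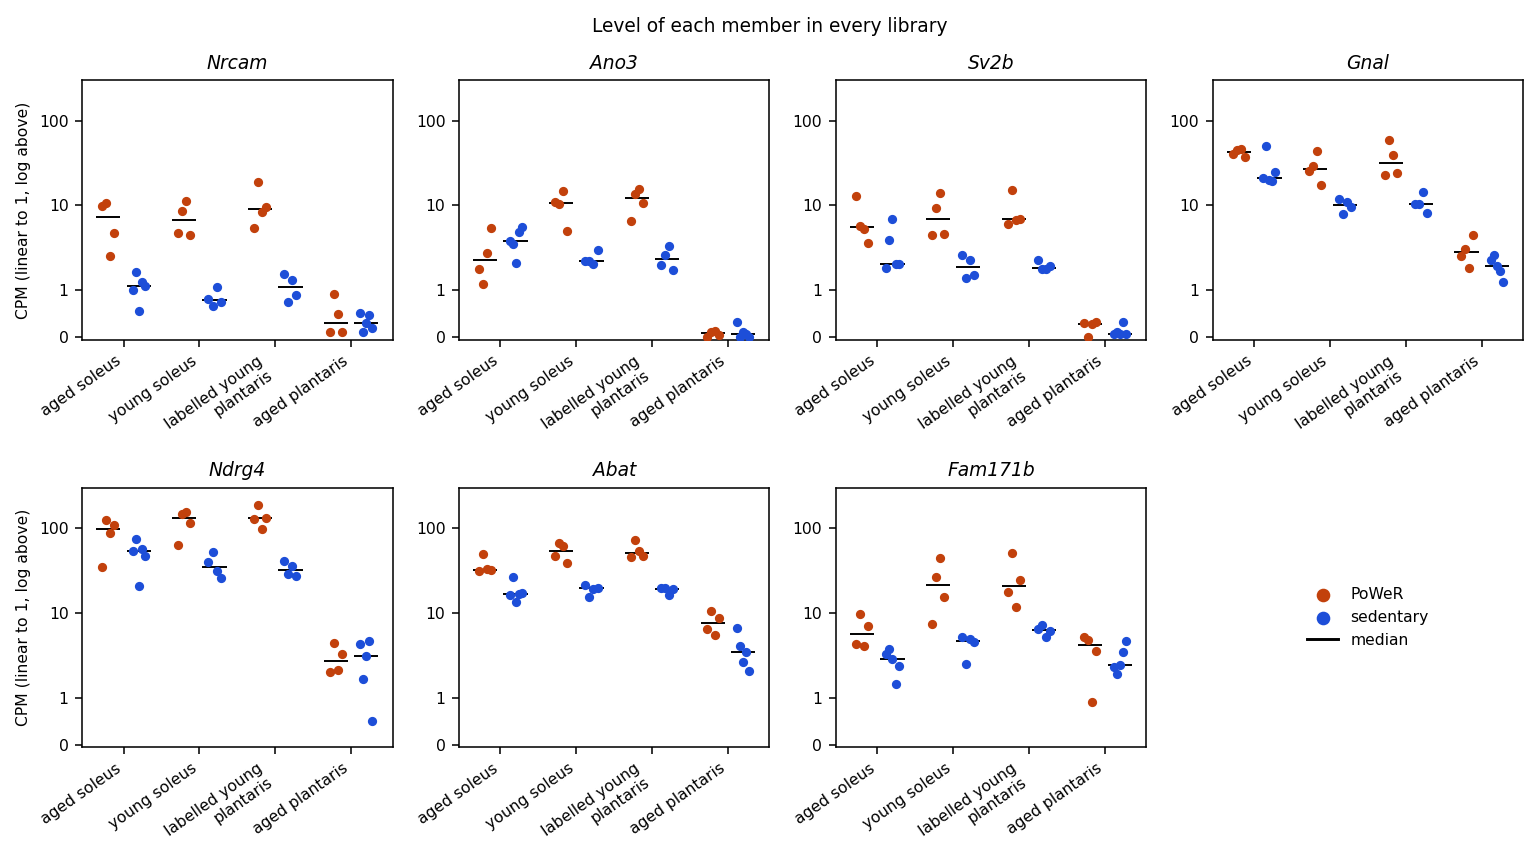
CPM of each gene in every library (points) with the group median (bar), PoWeR left of sedentary in each pair, on an axis that is linear up to 1 CPM and logarithmic above. Nrcam, Abat and Fam171b do not overlap between PoWeR and sedentary libraries in the 3 soleus-type pairs, while for the 6 genes other than Fam171b the aged plantaris sedentary libraries lie below the aged soleus sedentary ones. For Ano3, Sv2b and Nrcam nothing is read from that, since they passed the filter on low counts only through soleus.

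Counted over the 7 genes, PoWeR libraries lay wholly above sedentary ones for 3 in aged soleus (Nrcam, Abat and Fam171b), for 7 in young soleus and for 7 in the libraries labelled young plantaris. Of all genes tested, 3.35%, 6.05% and 4.57% did so in these 3 pairs, and 0.857%, 12.9% and 0.223% passed edgeR's quasi-likelihood test at an adjusted p under 0.05 in either direction. Since these comparisons chose the genes, nothing is read from the counts. The median log2 fold change of the 7 was 1.002 in aged soleus, 2.08 in young soleus and 2.05 in the libraries labelled young plantaris, while the median of all genes was -0.003, 0.039 and 0.010.

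In the libraries labelled young plantaris low ribosomal shares were more frequent with PoWeR, and their part in the members' values was not tested. Values by share follow from the lack of overlap in this pair, and 1 group has a single library on each side of 0.7%. Under 0.7%, Nrcam had 5.43 to 18.7 CPM in PoWeR replicates 1, 2 and 4 and 1.31 CPM in sedentary replicate 3. At or over 0.7% it had 8.37 CPM in PoWeR replicate 3 and 0.739 to 1.55 CPM in sedentary replicates 1, 2 and 4. Under 0.7%, Gnal had 22.7 to 59.7 CPM with PoWeR, against 14.5 CPM when sedentary. In young soleus, without PoWeR replicate 3, whose share was 0.4225% and where all members but Abat were highest, the log2 fold changes were 2.86 for Nrcam, 1.92 for Ano3, 1.67 for Sv2b, 1.26 for Gnal, 1.56 for Ndrg4, 1.43 for Abat and 1.97 for Fam171b.

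**Figure D2:**
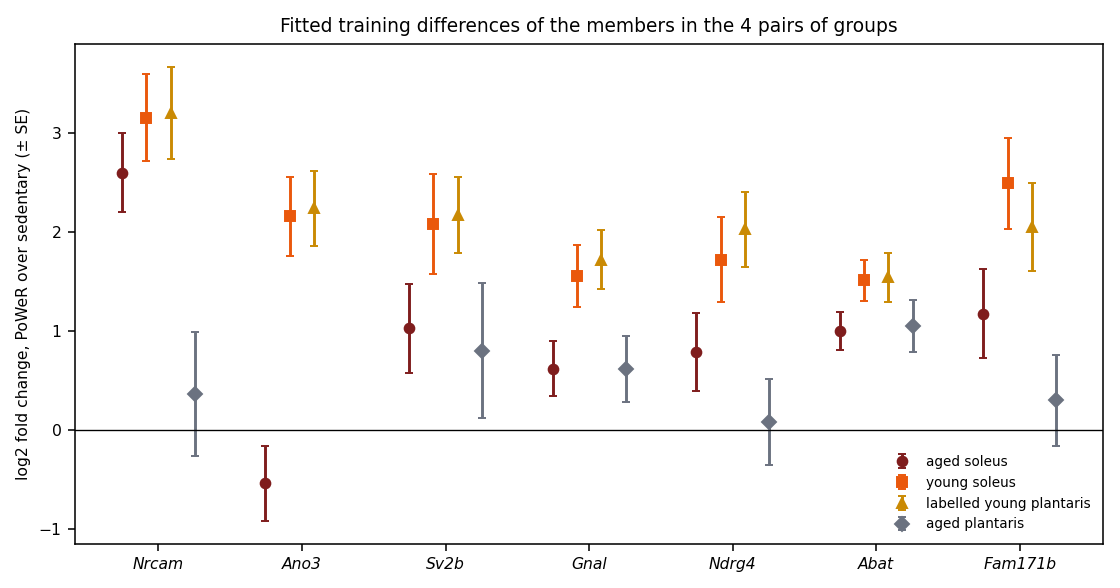
Fitted log2 fold change of PoWeR over sedentary libraries for each gene in the 4 pairs of groups, with the standard error as bars; Ano3 in aged plantaris is left out because it had at most 5 reads a library. Nrcam is highest in the 3 soleus-type pairs, and Ano3 lies below 0 in aged soleus alone.

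The aged plantaris comparison was not used to choose the genes and was tested. PoWeR libraries did not lie wholly above sedentary ones for any of the 7 genes, against 1.71% of all genes, and 0 of the 7 passed edgeR's quasi-likelihood test, against 0.0262% of all genes (4 of 15280). Nrcam, Ano3 and Sv2b, with 0 to 16 reads a library, passed the filter on low counts only through the libraries labelled young plantaris, so their part of that count carries little information. At an unadjusted p under 0.05 there were 1506 genes, Abat the only member among them, and DESeq2 called 110 genes, with Abat again the only member.

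Abat had 6.53, 10.4, 5.51 and 8.74 CPM in aged plantaris PoWeR replicates 10, 12, 14 and 15 and 6.67, 4.06, 2.64, 3.47 and 2.07 CPM in sedentary replicates 12 to 16. All 4 PoWeR libraries exceeded 4 of the 5 sedentary ones, and sedentary replicate 12 lay within their range. The fold was 2.07 (95% interval 1.41 to 3.03, log2 1.05 ± 0.26), with an edgeR adjusted p of 0.163 over all genes. DESeq2 gave an adjusted p of 0.0221, and without sedentary replicate 12 edgeR gave 0.0452. PoWeR replicate 12 also held the highest adipocyte and Schwann cell marker sums, 1177 CPM and 213.5 CPM, beside 109.2 to 171.2 CPM and 32.15 to 35.91 CPM in the other PoWeR libraries and 70.46 to 199.3 CPM and 16.53 to 37.04 CPM in sedentary ones. Without that library the Abat log2 fold change was 0.86 (edgeR adjusted p = 0.467).

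The other members could not be placed closely in aged plantaris. Gnal's fold was 1.53 (95% interval 0.942 to 2.49, edgeR adjusted p = 0.574) and Fam171b's 1.23 (0.622 to 2.43, adjusted p = 0.877). Fam171b had 5.21, 4.73, 0.907 and 3.51 CPM with PoWeR and 2.29, 1.88, 2.4, 3.47 and 4.7 CPM when sedentary. For Ndrg4 the fold was 1.06 (0.554 to 2.02), for Sv2b 1.74 (0.648 to 4.68) and for Nrcam 1.29 (0.52 to 3.19), with edgeR adjusted p of 0.973, 0.736 and 0.891. Without PoWeR replicate 12, the Nrcam log2 fold change in aged plantaris was -0.48. The reads of Nrcam, Ano3 and Sv2b are too few in aged plantaris for their fold changes to be exact.

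The other comparison tested was soleus against plantaris in aged sedentary mice, which involved no training. Its main fit compared group means and did not pair the muscles by replicate number. Gnal, Ndrg4 and Abat were called higher in soleus by edgeR, against 17% of all genes called higher and 32.9% called in either direction, and Fam171b was not called. Ano3, Sv2b and Nrcam passed the filter on low counts only through soleus, where they are high, so they had to differ and are given as values with no test. The soleus libraries of Gnal, Ndrg4 and Abat lay wholly above the plantaris libraries, as for 13.1% of all genes. Those of Ano3, Sv2b and Nrcam did so too, and because of the filter nothing is read from that. The sedentary soleus libraries also entered the comparison that chose the genes, which favours low values there, and the choice asked for expression in libraries with a soleus profile, which favours high ones.

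Ano3 had 3.96 ± 1.34 CPM in soleus and 0.101 ± 0.131 CPM in plantaris (SD, n = 5 each). Sv2b had 3.33 ± 2.13 CPM in soleus and 0.128 ± 0.118 CPM in plantaris. Both had 0 to 5 reads in each aged sedentary plantaris library. Nrcam had 1.12 ± 0.398 CPM in soleus and 0.316 ± 0.17 CPM in plantaris, on 2 to 8 reads a plantaris library. Ndrg4 was 18.2-fold higher in soleus (95% interval 8.61 to 38.6, edgeR adjusted p = 1.2e-05), with 50.7 ± 19.5 CPM in soleus and 2.83 ± 1.75 CPM in plantaris. Gnal was 14.1-fold higher (9.12 to 21.8, edgeR adjusted p = 3.53e-08), with 27.3 ± 13.3 CPM in soleus and 1.94 ± 0.521 CPM in plantaris.

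Abat was 4.81-fold higher in soleus (3.22 to 7.18, edgeR adjusted p = 4.92e-06), with 17.9 ± 4.87 CPM in soleus and 3.78 ± 1.78 CPM in plantaris. Fam171b had 2.73 ± 0.877 CPM in soleus and 2.95 ± 1.14 CPM in plantaris, a fold of 0.935 (0.534 to 1.64, edgeR adjusted p = 0.878).

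**Figure D3:**
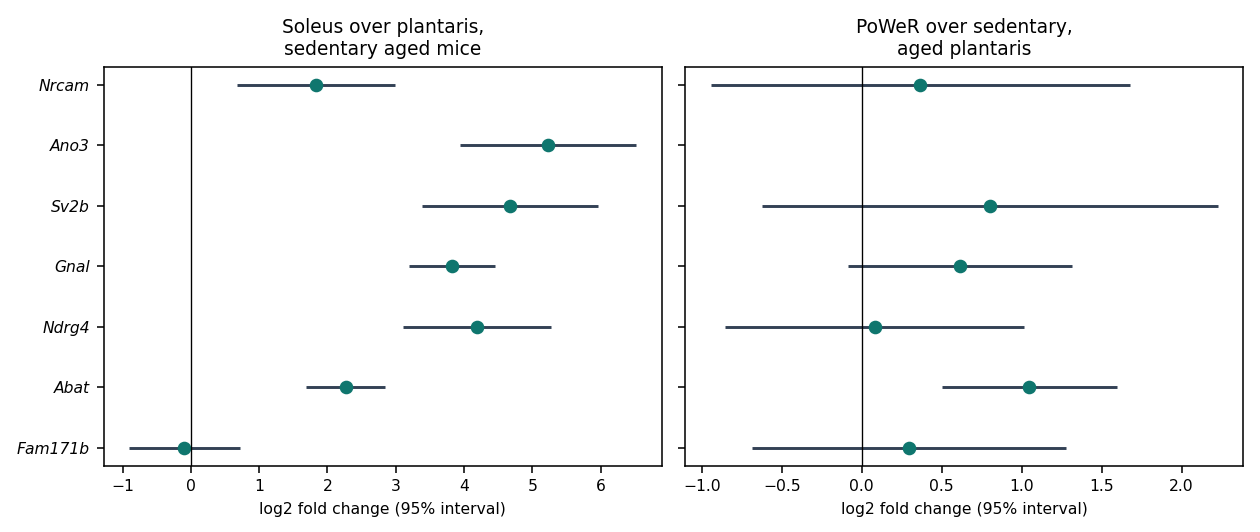
Fitted log2 fold changes with their 95% intervals for soleus over plantaris in sedentary aged mice (left) and for PoWeR over sedentary in aged plantaris (right), where Ano3 is left out for its few reads. On the left the intervals of all genes but Fam171b lie above 0, and on the right only that of Abat does. Ano3, Sv2b and Nrcam passed the filter on low counts only through soleus, so nothing is read from their intervals on the left.

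Per kb of exon, the order of mean levels in young soleus PoWeR libraries was Ndrg4 (24.4 CPM per kb), Abat (6.86), Fam171b (4.11), Gnal (2.59), Ano3 (1.43), Sv2b (0.961) and Nrcam (0.547). In young soleus sedentary libraries it was Ndrg4 (7.57 CPM per kb), Abat (2.45), Gnal (0.899), Fam171b (0.745), Ano3 (0.327), Sv2b (0.231) and Nrcam (0.0617). With PoWeR, Ndrg4 lay above all others and the libraries of every later pair of neighbours overlapped. Among sedentary libraries only Gnal and Fam171b, and Ano3 and Sv2b, overlapped as neighbours. Nrcam had the lowest mean in both groups, with 10 to 22 reads in each sedentary young soleus library.

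Near relatives of the members are set beside them in young soleus. L1cam, the founding member of the L1 family, had 0.416 ± 0.102 CPM per kb with PoWeR and 0.393 ± 0.0963 CPM per kb when sedentary (SD, n = 4 each). Nrcam was below L1cam in every sedentary young soleus library and its mean was above that of L1cam with PoWeR. Of the other vesicle glycoproteins, Sv2a had 0.101 ± 0.0551 CPM per kb with PoWeR and 0.09 ± 0.0263 when sedentary, and Sv2c 0.0801 ± 0.0143 with PoWeR and 0.139 ± 0.06 when sedentary. Ndrg2, the most abundant of its family here, had 577.1 CPM per kb with PoWeR and 677.2 when sedentary. Gnas, which encodes the widely expressed Gs alpha, had 70.4 ± 9.68 CPM per kb with PoWeR and 85.2 ± 7.14 when sedentary. Fam171a1 had 2.93 CPM per kb with PoWeR and 2.82 when sedentary.

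**Figure D4:**
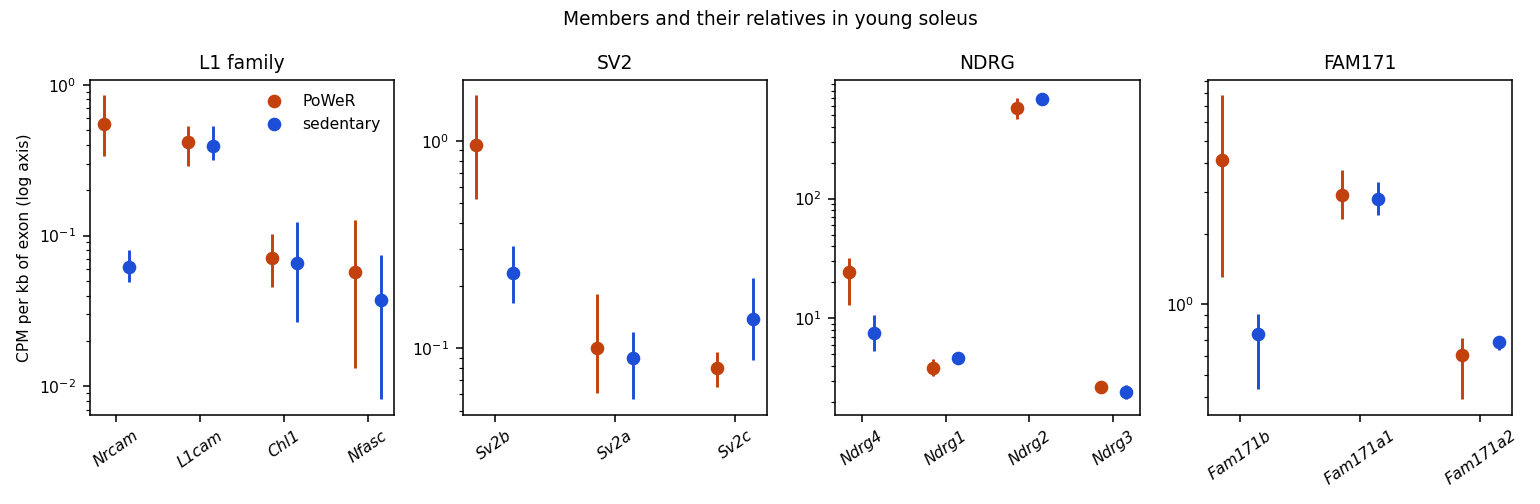
Mean (point) and lowest to highest library (line) in CPM per kb of exon, on a log axis with its own range in each panel, for 4 members and their relatives in young soleus, PoWeR left of sedentary (n = 4 each). Nrcam, Sv2b, Ndrg4 and Fam171b separate by training, while the ranges of L1cam, Sv2a and Fam171a1 overlap.

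Called genes in the lists around each member are counted without the members, and the all-gene shares given here apply to every list in soleus. The GABA metabolism and transport list also holds receptor and autophagy genes. Of its 7 tested genes, 1 fell in aged soleus, and 1 rose and 2 fell in young soleus, beside all-gene shares of 0.857% and 12.9%. The riser was Gabbr1, a subunit of the GABA-B receptor, with 24.9 ± 6.92 CPM with PoWeR and 15.75 ± 1.003 CPM when sedentary (SD, n = 4 each) at a log2 fold change of 0.69 ± 0.18 (SE, edgeR adjusted p = 0.0199). Gabarapl1, an autophagy protein named for the GABA-A receptor, fell at both ages (-0.69 ± 0.14 in aged and -0.66 ± 0.15 in young soleus). The enzymes that make GABA were at or near 0: Gad1 averaged 0.0387 CPM with PoWeR and 0.078 CPM when sedentary in young soleus, and Gad2 had no read in either group. Aldh5a1, which acts after Abat in GABA breakdown, had 10.1 ± 1.32 CPM with PoWeR and 10.5 ± 2.5 CPM when sedentary. In the libraries labelled young plantaris, Gabbr1 had 24.9 ± 5.22 CPM with PoWeR and 15.2 ± 2.36 CPM when sedentary, which missed the threshold (edgeR adjusted p = 0.0951).

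Of 15 tested synaptic vesicle and exocytosis genes, 0 passed edgeR's test in aged soleus and 1, the vesicle protein gene Vamp2, fell in young soleus (-0.37 ± 0.12). The list's median log2 fold change was -0.06 in aged and -0.01 in young soleus. Of 12 genes of olfactory-type G protein signalling, 0 passed in aged soleus and 2 rose in young soleus, the adenylyl cyclase Adcy9 (1.01 ± 0.16, edgeR adjusted p = 0.00289) and the cyclic nucleotide phosphodiesterase Pde10a (1.14 ± 0.32, adjusted p = 0.028). In the list of the L1 family, its ankyrin partners and some other genes 1 of 11 rose in young soleus and 0 passed in aged soleus. The riser was Ncam1 (0.68 ± 0.17), an adhesion molecule gene outside the L1 family. Of 6 tested anoctamins 2 rose in young soleus, Ano5 (0.51 ± 0.15) and Ano6 (0.38 ± 0.12), and 0 passed in aged soleus. The 3 NDRG and 2 FAM171 relatives held no call in either soleus age. When 1 young soleus library at a time was left out, Adcy9, Gabarapl1, Uchl1 and Lrp4 kept their calls in all 8 fits, while Ncam1 did in 6, Gabbr1 in 5, Vamp2 in 4, Pde10a in 3, Ano5, Ano6, Musk and Sln in 2 and Cdh19 in 1. Every list had 0 calls by edgeR in the libraries labelled young plantaris and in aged plantaris. Of all genes only 0.223% and 0.0262% were called there, so nothing is read from these zeros, while 1875 and 1506 of 15280 genes had an unadjusted p under 0.05.

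In aged sedentary soleus against plantaris, 5 of 7 genes of the GABA list were higher by edgeR and 0 lower. They were led by the receptor gene Gabbr1 (1.45 ± 0.17) and the autophagy gene Gabarapl1 (1.28 ± 0.19). Aldh5a1, of GABA breakdown, had 13.3 ± 1.015 CPM in soleus and 14.5 ± 2.97 CPM in plantaris (SD, n = 5 each). In the vesicle list 3 were higher and 2 lower of 17, led by Syn2 (1.56 ± 0.42) and Rab3a (-0.43 ± 0.15), a synapsin and a vesicle-bound GTPase. Of 12 olfactory-type genes 2 were higher and 3 lower, and of 6 anoctamins 0 were higher and 2 lower, Ano5 (-1.54 ± 0.14) and Ano8 (-0.61 ± 0.13). Ano3 is not set against these calls, since it passed the filter on low counts only through soleus. In the list around Nrcam, which holds some genes outside the L1 family, 3 of 10 were higher and 2 lower, led by Ncam1 (1.99 ± 0.20) from outside that family. These counts stand beside 32.9% of all genes called.

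Markers of nerve were examined because the genes are known from neurons. Of 14 neuron and motor axon markers in the table, 4 were tested and 1 was called at each soleus age: Uchl1, a ubiquitin hydrolase abundant in neurons, with 63.4 ± 18.9 CPM with PoWeR and 30.6 ± 4.38 CPM when sedentary in aged soleus (log2 1.03 ± 0.19, edgeR adjusted p = 0.0149) and 34.2 ± 8.32 CPM with PoWeR and 15.1 ± 2.53 CPM when sedentary in young soleus (1.22 ± 0.21, adjusted p = 0.00501). Libraries labelled young plantaris had 27.8 ± 3.57 CPM with PoWeR and 10.7 ± 3.99 CPM of Uchl1 when sedentary (1.37 ± 0.31, edgeR adjusted p = 0.0701), and aged plantaris 11.1 ± 5.83 CPM with PoWeR and 7.36 ± 1.25 CPM when sedentary (adjusted p = 0.529). The 14 markers summed to 48.9 to 92.1 CPM with PoWeR and 29.6 to 42.7 CPM when sedentary in aged soleus, and to 33.8 to 56.5 CPM with PoWeR and 24.2 to 32.4 CPM when sedentary in young soleus. Without Uchl1, a split made after its values were seen, the other 13 summed to 5.54 to 11 CPM with PoWeR and 4.46 to 9.21 CPM when sedentary in aged soleus. In young soleus these 13 summed to 6.83 to 14.7 CPM with PoWeR and 11.2 to 14.3 CPM when sedentary, and in the libraries labelled young plantaris to 8.04 to 11 CPM with PoWeR and 10.2 to 16.8 CPM when sedentary. Rbfox3, Nefl and Elavl2, which mark neurons, were at 0 in all young soleus sedentary libraries, while in young soleus PoWeR libraries 0 of the 14 markers were at 0 throughout. Aged plantaris went the other way, with Rbfox3 at 0 in all PoWeR libraries and 0 markers at 0 throughout the sedentary ones. Nothing is read from these zeros. Schwann cell markers summed to 38.9 to 63.6 CPM with PoWeR and 21.2 to 40.8 CPM when sedentary in aged soleus, and to 42.6 to 82.8 CPM with PoWeR and 56.8 to 82.7 CPM when sedentary in young soleus, with 0 of 11 called in aged and 1 in young soleus (Cdh19, 1.12 ± 0.37). The part of nerve or Schwann cells in the members' values was not tested. Of the markers of other cells, the satellite cell gene Myod1 rose in aged soleus, 1 of 8 in its list (1.04 ± 0.22), and in young soleus the endothelial Emcn (-0.69 ± 0.22) and the adipocyte Fabp4 (-0.78 ± 0.17) fell, the macrophage gene Mrc1 rose (1.20 ± 0.31), and 0 of 8 fibroblast markers passed. With 1 library left out at a time, Myod1 kept its call in 4 of 9 fits, Emcn in 1, Mrc1 in 5 and Fabp4 in 8 of 8. Slow fibre markers fell for 2 of 9 and fast ones for 3 of 10 in young soleus, with 0 calls of either kind in aged soleus.

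Of 11 genes of the fibre's response to denervation, 4 rose in aged soleus, where 0.857% of all genes were called, led by Gdf5, a growth factor of the BMP family (log2 3.63 ± 0.76, edgeR adjusted p = 0.0292), and Gadd45a, a growth arrest gene (2.96 ± 0.58, adjusted p = 0.0293). Set against the mean of sedentary libraries, the median log2 difference over these genes was 1.73, 2.49, 0.25 and 0.85 in PoWeR replicates 10, 12, 14 and 15, and Nrcam was also highest in replicates 10 and 12 and lowest in replicate 14. With each aged soleus library dropped in turn, Gdf5 and Gadd45a were still called in 3 of the 9 fits and Chrnb1 in 2. The list summed to 377.2 to 974.9 CPM with PoWeR and 272.9 to 353.8 CPM when sedentary in aged soleus. In young soleus, where 12.9% of all genes were called, 2 of the 11 rose, Sln, an inhibitor of the calcium pump (0.99 ± 0.27), and Ncam1, with list medians of 0.24 to 0.74 per PoWeR library. The highest list median there was in replicate 2, while Nrcam was highest in replicate 3 (11.3 CPM, list median 0.44). In the libraries labelled young plantaris 0 of 11 passed edgeR's test, as only 0.223% of all genes did. The list summed there to 313.1 to 390 CPM with PoWeR and 191.5 to 238.2 CPM when sedentary. Its median difference was 0.01 to 0.61 per PoWeR library, where Nrcam had 5.43 to 18.7 CPM. Both were highest in replicate 2, but the list median was lowest in replicate 3 and Nrcam in replicate 1. Of 14 neuromuscular junction genes of the fibre 1 rose in aged soleus, the acetylcholine receptor subunit Chrnb1 (0.72 ± 0.16), and 3 in young soleus, among them the receptor kinase Musk (0.88 ± 0.26) and its partner Lrp4 (0.69 ± 0.16), beside the same all-gene shares of 0.857% and 12.9%. The part of these genes' change in that of Nrcam was not tested.

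Over the 34 libraries, the genes whose log2 CPM was most like that of Nrcam were Igdcc4 (Pearson r = 0.865), Arhgap42 (0.864), Tmem86a (0.863), Fam214b (0.86) and Cacna2d3, an auxiliary calcium channel subunit (0.856), among 14682 genes that are not members. Abat, with r = 0.891, was ahead of all of them. Both genes were chosen for their rises in libraries that enter this correlation, so nothing is read from that place. The libraries fall into a soleus-type and an aged plantaris cluster, which both enter all these correlations. With each group's mean taken away, the closest were Capn6 (0.658), the actin-binding protein Dmtn (0.636), the sodium channel Scn3a (0.631), Pde10a (0.623) and the caspase Casp9 (0.588). Abat then had r = 0.494, at rank 70 of 14688 genes. On that basis the gene most like Ano3 was Gm12286 (0.665), most like Sv2b Pafah1b1 (0.821), most like Gnal Usp13 (0.806), most like Ndrg4 Carhsp1 (0.806), most like Abat Ablim1 (0.732) and most like Fam171b Spcs3 (0.832). No test was made of the ranking. With a prior count of 0.5 in place of 2, the genes closest to Nrcam in level were led by Arhgap42 (0.869), and in deviations again by Capn6 (0.676), while the closest in deviations became Gm47547 for Ano3 (0.723), Sulf2 for Ndrg4 (0.811) and Slc26a7 for Abat (0.739). With Spearman's correlation it was Pde10a for Nrcam (0.693), Rab11fip5 for Gnal (0.781), Fhl1 for Ndrg4 (0.858), Slc26a7 for Abat (0.754) and C730034F03Rik for Ano3 (0.659), and Sv2b and Fam171b had the same closest gene under both changes.

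Among themselves, the members' deviations from their group means are described by pairwise correlations. Over 25 soleus-type libraries the median of 21 pairwise correlations was 0.454, and 19 were positive. The highest was that of Gnal with Abat (0.75) and the lowest that of Ano3 with Sv2b (-0.208). Over 9 aged plantaris libraries the median was 0.026 and 12 were positive, with few reads behind Nrcam, Ano3 and Sv2b. Such medians were not computed for other sets of genes, so nothing is read from them about the members as a set. In every PoWeR library of young soleus and of the libraries labelled young plantaris, all 7 members were above the highest sedentary library of their pair, as were 6.05% and 4.57% of all genes. In aged soleus Nrcam, Abat and Fam171b were so in each of the 4 PoWeR libraries, as were 3.35% of all genes. Sv2b was also so in replicate 10, and Ndrg4 in replicates 12, 14 and 15. These pairs chose the genes, so nothing is read from such counts.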

How the data were processed

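The deposited table holds expected counts, which the authors left unscaled, and 25.6% of the values are not whole. Per the submitters' processing notes, STAR 2.7.3a, Partek, DESeq2 and mm10 were used, with no roles stated. Of the 34 columns, 32 match a sample description exactly and 2 differ only in case. Groups follow the source name, since aged plantaris samples carry titles with soleus in them, and the extraction text names plantaris for every sample. Young replicate numbers are in accession order.

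The members and lists were chosen with earlier results of these data known. Expected counts were rounded and fitted with a mean per group over each labelled muscle's 17 libraries, or over the 18 aged libraries for soleus against plantaris. The main tool was edgeR 4.0.16 (R 4.3.3), with TMM factors, its expression filter at a minimum count of 10 and a minimum total of 15, robust estimates and quasi-likelihood tests. A call is an adjusted p under 0.05 (Benjamini-Hochberg over all genes tested). CPM used TMM-scaled library totals, CPM per kb the exon length from GENCODE, and log2 CPM for correlations a prior count of 2. Replicates were checked for duplicates by chi-square (smallest value per degree of freedom 5.19).

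Named were the 7 members with their relatives, up to 2 called genes per list by size of change (or 1 with the smallest p), and the genes most like the members. The alternatives were DESeq2 1.42.0, limma 3.58.1 with quality weights, RLE factors, no filter, only 2 groups, the replicate number as a block, a term for the ribosomal repeat share and each library left out. The fits were tested on simulated data. Figures were drawn with matplotlib 3.10.9.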

Additional observations from a re-analysis of the deposited data

Results flagged for a closer look

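In 5 of the 56 sets made by a gene and a group, 1 library stood apart from the rest of its group by Dixon's test, where chance flags about 1 in 20. Gnal had 50.76 CPM in aged soleus sedentary replicate 13, against 19.39 to 24.64 CPM in the other 4 libraries. Abat had 49.48 CPM in aged soleus PoWeR replicate 12, against 30.91 to 32.55 CPM in the other 3. Sv2b had 15.36 CPM in PoWeR replicate 2 of the libraries labelled young plantaris, against 6.099 to 6.979 CPM in the other 3. In aged plantaris, Sv2b was at 0 CPM in PoWeR replicate 12, against 0.2789 to 0.3235 CPM in the other 3, and at 0.3337 CPM in sedentary replicate 15, against 0.06008 to 0.1177 CPM in the other 4, all on 6 reads or fewer.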

How the results depend on the processing

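The members' training differences in the soleus-type comparisons kept their sign under every alternative run, and so did their differences between soleus and plantaris, except for Fam171b. The number of genes called moved more. In aged soleus the 128 calls were 521 with limma and quality weights, 371 with DESeq2, 229 with only the 2 groups, 216 with the ribosomal term and 36 to 172 without 1 library (36 without PoWeR replicate 12). In young soleus the 1920 were 358 with only the 2 groups, 620 with the ribosomal term and 602 to 2545 without 1 library (602 without sedentary replicate 2, 623 without PoWeR replicate 3). In the libraries labelled young plantaris the 34 were 225 with DESeq2, 1369 with limma, 87 with only the 2 groups, 1 with the ribosomal term and 1 to 227 without 1 library. In aged plantaris the 4 were 110 with DESeq2, 2 with no filter, 0 with only the 2 groups, 8 with the ribosomal term and 0 to 10 without 1 library, and members called there were 1 with DESeq2 and 0 to 1 without 1 library. For soleus against plantaris, genes called were 4245 to 4647 without 1 library, and the ribosomal term could not be fitted. Gnal, Ndrg4 and Abat stayed called there under every alternative run. Ano3, Sv2b and Nrcam passed the filter only through soleus, so their calls are not counted, and Nrcam fell under the filter with only the 2 groups. Abat in aged plantaris had adjusted p of 0.0221 to 0.467 over its alternatives.

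With the replicate block the calls were 10 in aged soleus and 1 in aged plantaris, and Gnal, Ndrg4 and Abat were still called between muscles. The Gnal change in aged soleus was 1.07. Aged PoWeR and sedentary libraries share numbers but did not deviate together (correlations -0.119 to 0.0847), so the number does not pair trained with sedentary libraries. Between muscles of sedentary mice 4 of 5 libraries correlated best with their own number (0.0195 to 0.242). Between muscles of aged PoWeR mice every soleus library did so (0.138 to 0.25). Both muscles may thus come from the same mouse, which the main fit between muscles did not take into account and the replicate block did.

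In aged plantaris Nrcam turned to -0.42 with limma and ran from -0.48 to 0.71 without 1 library, Ndrg4 turned to -0.31 with the block and ran from -0.20 to 0.34, and the Ano3 estimate, on 5 reads or fewer a library, ran from -0.75 to 0.61. Fam171b ran from -0.27 to 0.14 between muscles without 1 library. The causes were not tested.

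With a prior count of 0.5 or Spearman's correlation, the median over the 21 pairs was 0.436 and 0.458 in soleus-type libraries and 0.0273 and -0.0333 in aged plantaris. Depth limits Nrcam, Ano3 and Sv2b in aged plantaris.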
